A study of Mus musculus with 4 samples.

Results

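The galectin family was examined in mouse T-helper 17 (Th17) cells, the CD4 T cells that secrete interleukin 17. The set holds 8 genes chosen by name (Lgals1, Lgals2, Lgals3, Lgals3bp, Lgals4, Lgals7, Lgals8 and Lgals9) out of 50600 genes in the count tables, and all 8 were found. It was proposed with earlier results of these data in view, so the levels below are a description without a test. RNA was sequenced from 4 libraries of 1 group, primary Th17 cells of the C57BL/6NJ strain with no treatment named in the labels. The labels number them as biological replicates 1 to 4, give 1 shared donor label, record neither sex nor age, and link a protocol for CD4 T cell differentiation. The library names carry the word sorted and a time of 72 hours. The labels call the molecule total RNA, while the linked library protocol is named for poly(A) RNA. No second cell state was analysed here, so all comparisons are between genes within a library or between libraries. Nothing in the labels ties the libraries to distinct mice or cultures. Each p-value below thus refers to differences among these 4 libraries alone, which may in part be technical.

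Galectins are lectins that bind β-galactoside sugars through a conserved carbohydrate recognition domain. They are made in the cytosol and leave the cell without a signal peptide. Galectin-1, galectin-2 and galectin-7 carry a single recognition domain. Galectin-3 joins its domain to a glycine- and proline-rich tail, and galectin-4, galectin-8 and galectin-9 join a pair of different domains by a linker. Outside the cell they cross-link glycoproteins into lattices, and inside it several of them mark damaged endosomes and lysosomes. In T cells, galectin-1 is known for limiting activated effector cells, galectin-3 for restraining receptor mobility and galectin-9 for binding the receptor TIM-3. Lgals3bp is no galectin: it encodes a secreted glycoprotein that galectin-3 binds.

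The libraries differed in sex-linked transcripts. Xist, the RNA of the inactive X chromosome, had 177, 193, 2.15 and 0.598 TPM in replicates 1 to 4. The Y-linked gene Ddx3y had 0.165, 0.133, 59.7 and 55.2 TPM, and Eif2s3y, Kdm5d and Uty were likewise near 0 in replicates 1 and 2 only. Replicates 1 and 2 therefore had a female pattern and replicates 3 and 4 a male one, so the 4 libraries cannot all be repeats of 1 animal, although they share a donor label. Replicate 4 also stood apart from the others over all genes. A chi-square test of counts gave 13.7 to 18.5 per gene for pairs with replicate 4, and 3.32 to 7.28 for the other pairs.

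Total counts of read pairs ran from 9382661 in replicate 3 to 34542693 in replicate 1. The T-cell identity genes were high: all 8 reached 1 TPM (counts per base of exon, scaled to the same total in each library) in every library, with a median of 438 ± 20.1 TPM (SD, n = 4), led by Cd5, Trac, Lck, Cd4 and Cd3d. All 11 listed Th17 genes also passed 1 TPM in every library, led by Il17f at 11651 ± 878 TPM and Il17a at 7787 ± 754 TPM. Of the markers of other cell types, the mast cell and basophil genes Cpa3, Mcpt8, Fcer1a and Ms4a2 had 0 counts. The summed level was at most 0.433 TPM for 7 neutrophil genes and 0.418 TPM for 8 dendritic cell genes. It was 5.76 to 11 TPM for 12 macrophage and monocyte genes and 11.6 to 19.8 TPM for 6 natural killer genes. The 8 stromal and endothelial genes summed to 8.37 to 10.3 TPM, the 8 B and plasma cell genes to 30.4 to 45.4 TPM and the pair of CD8 genes to 11.3 to 15.4 TPM. For the 6 regulators and cytokines of other helper fates the sum was 21.8 to 27.3 TPM, most of it from Tbx21 at 20.3 ± 3.38 TPM.

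The promoters are shown for Lgals9, Lgals3bp and Lgals3. The first pair stood at almost the same TPM, and all 3 were highest in replicate 4 (values below). These traits do not set them apart in the family. Of the 7 tested members 6 were highest in that library, and Lgals4 and Lgals8 also lay at almost the same TPM. Each sequence runs 5′ to 3′ from 250 bases before to 50 bases after the RefSeq start (build GRCm38.p6). Capitals mark matches to the motifs searched, on either strand.

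Lgals9 (chr11:78984875-78985174, minus strand): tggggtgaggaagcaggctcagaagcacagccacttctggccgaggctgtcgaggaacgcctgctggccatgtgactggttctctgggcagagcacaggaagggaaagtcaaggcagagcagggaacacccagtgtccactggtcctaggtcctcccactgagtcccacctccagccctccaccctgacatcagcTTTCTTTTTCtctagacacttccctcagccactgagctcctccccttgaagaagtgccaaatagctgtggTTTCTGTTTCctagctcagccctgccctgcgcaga

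Lgals3bp (chr11:118401910-118402209, minus strand): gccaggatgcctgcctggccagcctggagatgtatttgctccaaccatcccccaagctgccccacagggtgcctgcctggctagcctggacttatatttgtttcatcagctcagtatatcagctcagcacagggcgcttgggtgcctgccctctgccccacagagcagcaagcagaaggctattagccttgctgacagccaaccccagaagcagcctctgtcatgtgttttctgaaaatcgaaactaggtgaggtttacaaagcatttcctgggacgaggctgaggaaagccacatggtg

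Lgals3 (chr14:47373610-47373909, plus strand): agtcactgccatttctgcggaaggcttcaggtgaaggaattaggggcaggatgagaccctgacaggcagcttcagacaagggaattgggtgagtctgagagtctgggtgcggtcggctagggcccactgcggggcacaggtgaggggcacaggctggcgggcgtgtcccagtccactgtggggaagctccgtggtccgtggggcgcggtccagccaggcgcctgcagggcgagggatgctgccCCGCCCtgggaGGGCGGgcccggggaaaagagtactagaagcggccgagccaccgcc

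The RefSeq table held a promoter for 7 of the 8 members, with Lgals1 the exception. Both capital stretches of Lgals9 match, on the reverse strand, the interferon-stimulated response element, searched as the word GAAA repeated with 2 bases of any kind between. They begin at positions -55 and 16 from the start site. These letters were found in 1 of 7 member promoters and in 3.44% of all 32851 promoters of the same length. The capitals of Lgals3 match GGGCGG, the GC box, which 3 of 7 member promoters held (Lgals3, Lgals4 and Lgals7) and 35.7% of all promoters. None of the 7 held any of the other 4 motifs. Of all promoters, 8.3% held the STAT site (TTCNNNGAA) and 19.6% the low-oxygen response core (ACGTG). The AP-1 site (TGANTCA) was in 7.81% and the TATA box (TATAAA) in 13.6%. The motifs do not overlap each other here, and a match of letters is a description, not a site. GC content was 67% in Lgals3, 58% in Lgals9 and 55% in Lgals3bp, with a median of 52.7% over all promoters. In the files the gene model of Lgals3 begins 6109 bases upstream of this RefSeq start, that of Lgals8 3206 bases and that of Lgals7 533 bases upstream of theirs, so gene counts can include transcripts from other starts.

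Lgals1 dominated the family. It had 7367, 7125, 7039 and 7412 TPM in replicates 1 to 4, or 7236 ± 182 TPM (SD, n = 4), which placed it 7th by mean TPM among 21764 protein-coding genes. All 4 libraries lay close together, with replicate 4 the highest and replicate 3 the lowest. Lgals1 made up 95.8% ± 0.396 of the summed TPM of the 8 members (SD, n = 4), between 95.3% and 96.2% in single libraries. This share was 88.9% ± 0.998 when counts were not divided by gene length. As a share of all counts, Lgals1 took 0.179%, 0.174%, 0.171% and 0.182% in replicates 1 to 4. Beside the cytokines that define the lineage, its TPM was 0.847 to 1.10 times that of Il17a, above it in 1 of 4 libraries. It was 0.571 to 0.703 times that of Il17f. In counts not divided by gene length, Lgals1 was below Il17a in every library, with 51978 beside 69188 in replicate 4. In mm10, Lgals1 (ENSMUSG00000068220.5) lies on chromosome 15 from 78926725 to 78930465, with 800 bases of exon. Since reads that map to several places were not counted, near-identical copies could lower a gene. None of the 903 distinct windows of 75 bases in Lgals1 transcripts was found in a transcript of another gene. The pseudogenes Lgals1-ps1 and Lgals1-ps2 had 0 counts in every library. Read pairs shared with a copy would be left out of both genes, so these 0 counts cannot show whether any were lost.

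**Figure D1:**
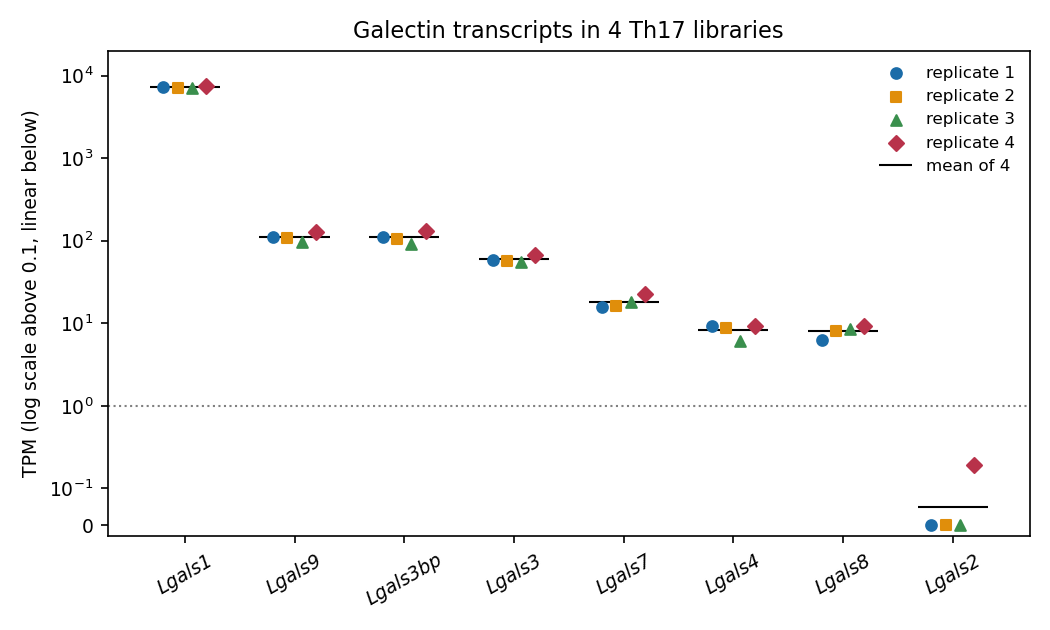
TPM of the 8 galectin family genes (log scale above 0.1, linear below) in 4 Th17 libraries, with points for libraries and a bar for their mean; the dotted line is 1 TPM. Lgals1 sits between 7039 and 7412 TPM, 6 genes lie between 6.06 and 132 TPM, and Lgals2 is at 0 in 3 libraries.

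Lgals9, the tandem-repeat galectin known as a ligand of TIM-3, came next. Its values were 111, 107, 96.5 and 126 TPM in replicates 1 to 4 (110.4 ± 12.4 TPM, SD, n = 4). Lgals3bp had 111, 106.0, 92.1 and 132 TPM (110.1 ± 16.4 TPM, SD, n = 4). For both genes replicate 4 was the top library and replicate 3 the bottom one, and their ranges overlapped. The ratio of Lgals9 to Lgals3bp was 1.01 ± 0.0361 (SD, n = 4), above 1 in 3 of 4 libraries and 0.960 in replicate 4. Among protein-coding genes they ranked 1810th and 1814th. Lgals1 exceeded Lgals9 by 58.6-fold to 72.9-fold. Lgals9 (ENSMUSG00000001123.15) lies on chromosome 11 from 78962974 to 78984946 and Lgals3bp (ENSMUSG00000033880.11) on the same chromosome from 118392751 to 118402092. Gene counts cannot separate the 4 annotated transcripts of Lgals9, whose linker lengths are known to differ.

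Lgals3, the chimera galectin, belongs to a published signature of pathogenic Th17 cells. It was measured at 58.3, 56.2, 55.9 and 67.5 TPM in replicates 1 to 4 (59.5 ± 5.47 TPM, SD, n = 4). Replicate 4 stood above the other libraries, which lay close together. Lgals3 ranked 3310th among protein-coding genes, so 84.8% of them were lower. Its range did not overlap those of Lgals9 or Lgals3bp above it, nor that of Lgals7 below it. Lgals1 exceeded Lgals3 by 110-fold in replicate 4 and by 126-fold to 127-fold in the others. Macrophages are a known rich source of galectin-3. In these libraries the macrophage genes C1qa, C1qb, C1qc and Fcgr1 had 0 counts, Adgre1 6 and Csf1r 20 counts in all, while Cd68 had 5.38, 8.02, 4.19 and 6.72 TPM in replicates 1 to 4, Cd14 88 counts and Mrc1 74. The sum over the 12 macrophage genes was 7.86, 11, 5.76 and 9.62 TPM, highest in replicate 2. Its part in the level of Lgals3 was not tested. Bulk RNA cannot tell fewer cells of a type from less RNA per cell. Lgals3 (ENSMUSG00000050335.16) lies on chromosome 14 from 47367751 to 47386160.

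Lgals7, Lgals4 and Lgals8 formed a lower tier. Lgals7 encodes a galectin known from stratified epithelia, and it had 15.7, 16.4, 18.2 and 22.9 TPM in replicates 1 to 4 (18.3 ± 3.23 TPM, SD, n = 4). Lgals4 encodes the galectin of intestinal epithelium, and it had 9.31, 8.71, 6.06 and 9.22 TPM (8.32 ± 1.53 TPM, SD, n = 4). Both therefore stood above 1 TPM in every library, on 497 and 599 counts in all. Epithelial markers were near 0 in the same libraries: Krt19, Krt14 and Cdh1 had 0 counts, Epcam had 11 and Krt5 had 1. The 8 epithelial genes summed to 2.05, 2.18, 1.43 and 2.48 TPM in replicates 1 to 4, most of it from Krt18 at 1.77 ± 0.390 TPM. The sum was lowest in replicate 3, as Lgals4 was, and highest in replicate 4, as Lgals7 was; its part in their levels was not tested. On chromosome 7, Lgals4 (ENSMUSG00000053964.17, 28833854 to 28841708) begins 1607 bases past the end of Ech1, a gene on the same strand with 141 ± 7.44 TPM. Lgals7 (ENSMUSG00000053522.11, 28863853 to 28866284) lies under the antisense gene Gm10648, which had 4 counts in all in this strand-aware counting.

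Lgals8, the tandem-repeat galectin that detects damaged vacuoles, had 6.20, 7.97, 8.56 and 9.37 TPM in replicates 1 to 4 (8.03 ± 1.35 TPM, SD, n = 4). Its range overlapped that of Lgals4, and each was the higher of the pair in 2 of 4 libraries. In replicate 1, the deepest library, the 95% Poisson interval of Lgals8 was 5.44 to 7.04 TPM, below the interval of 8.35 to 10.5 TPM in replicate 4. These intervals cover counting error only. Of its 3870 windows of 75 bases, 16 occurred in another annotated gene. Lgals8 (ENSMUSG00000057554.13) lies on chromosome 13 from 12439415 to 12464944.

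Lgals2, a single-domain galectin of the gut, was at the floor of detection. It held 1 count in replicate 4 (0.193 TPM) and 0 counts elsewhere. A count of 0 allows up to 3 counts, which for Lgals2 means 0.485 TPM in the deepest library, replicate 1, and 1.78 TPM in replicate 3. Its low level was therefore bounded less tightly in replicate 3, the shallowest library. The gene (ENSMUSG00000043501.4) lies on chromosome 15 from 78850862 to 78855529.

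By TPM, the family thus fell into steps that did not overlap over the 4 libraries. These were Lgals1, then Lgals9 with Lgals3bp, then Lgals3, Lgals7, Lgals4 with Lgals8, and Lgals2. The 2 pairs within steps, Lgals9 with Lgals3bp and Lgals4 with Lgals8, differed by less than their spread. In log2(TPM + 1) those differences were 0.01 ± 0.0515 and 0.04 ± 0.393 (SD, n = 4). At least 1 TPM was reached in all 4 libraries by 7 of 8 members. Among the other genes with a galectin fold, Lgalsl, the galectin-like gene, had 9.97 ± 1.52 TPM (SD, n = 4) and was lowest in replicate 4 at 8.10 TPM. Grifin, a galectin of the lens, held 2 counts and Lgals12, known from fat cells, 0 counts over all libraries.

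**Figure D2:**
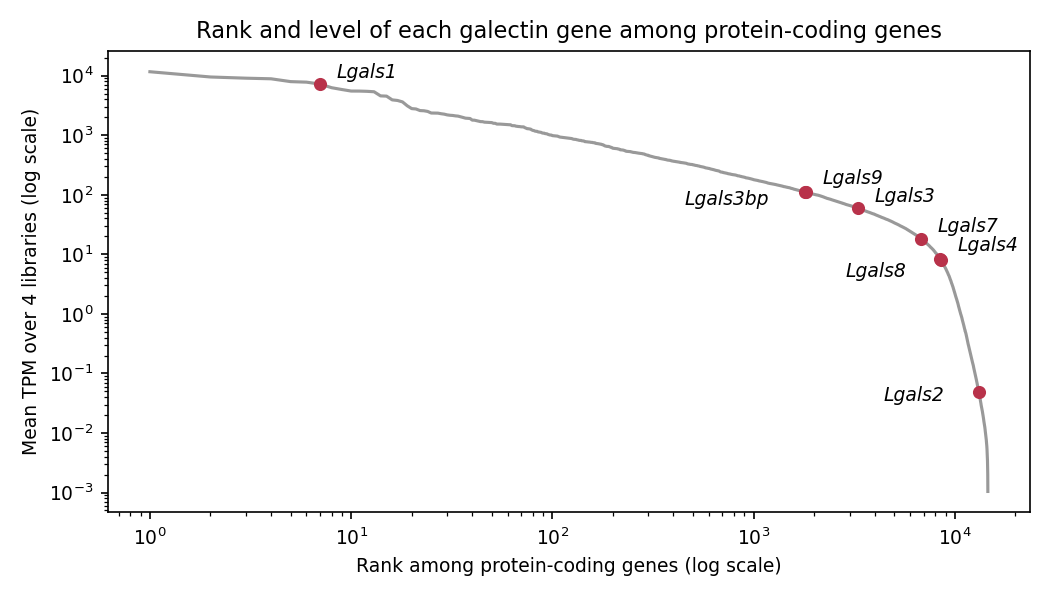
Mean TPM over 4 libraries against rank among protein-coding genes (both axes logarithmic; grey line all genes above 0, red points the galectin family). Lgals1 is at rank 7, Lgals9 and Lgals3bp are at ranks 1810 and 1814, and Lgals2 is at rank 13188.

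The spread between libraries was compared with that of other genes of similar abundance, with edgeR's quasi-likelihood fit of an intercept alone to all genes that passed its filter on low counts. Of the 8 members 7 passed the filter, Lgals2 being the exception. None of the 7 varied beyond the trend at an adjusted p (Benjamini-Hochberg) under 0.05, where 1 of 12156 genes did (0.00823%), Xist (326-fold in CPM, edgeR adjusted p = 0.00223). The Y-linked genes above did not pass the filter. At an unadjusted p under 0.05 there was 1 of 7, Lgals3bp, beside 4.9% of all genes, and DESeq2 marked 0 of 7 members and 103 of all genes as dispersion outliers. A gene that misses the threshold is not shown to be constant. Wide ranges missed it too: the interferon response gene Oas3, at 6.92-fold in CPM, had an edgeR adjusted p of 0.289.

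Lgals3bp had the smallest p of the family. On the scale of TMM-normalised counts (CPM, scaled to a fixed library total), which corrects for library composition but not for gene length, it had 95.8, 92.3, 80.9 and 114 CPM in replicates 1 to 4. Replicate 4 was 1.4-fold above replicate 3 (edgeR quasi-dispersion test, unadjusted p = 0.0369, adjusted p = 0.979). The adjusted p ran from 0.347 to 0.995 over the settings tried. Without replicate 3 the range was 1.23-fold (edgeR unadjusted p = 0.0509) and without replicate 4 it was 1.18-fold (edgeR unadjusted p = 0.0866), so 0 of 7 members had an unadjusted p under 0.05 in either case. Lgals9 showed the same order with less spread, at 72.4, 69.9, 63.7 and 81.8 CPM (1.28-fold, edgeR adjusted p = 0.991). Lgals3 had 32.9, 31.95, 32.1 and 38.0 CPM, a 1.19-fold range (edgeR adjusted p = 0.991) that was 1.03-fold without replicate 4. Lgals1 was the steadiest member, at 1790, 1743, 1739 and 1796 CPM, with a coefficient of variation of 1.72% beside a median of 7.91% over all genes tested. That median covers genes of all levels and is not matched to the abundance of Lgals1. Ptprc and Itgb1, at 188 and 227 TPM far below Lgals1, had 1.48% and 1.64%. Of genes nearer its level, Ldha had 3.63%, Il17f 8.02%, Il17a 10.2% and Ctla4 12.6%.

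The low members were less precisely measured. Lgals4, Lgals8 and Lgals7 differed 1.51-fold, 1.51-fold and 1.45-fold between their extreme libraries, with coefficients of variation of 17.7%, 16.8% and 17.3%. With Lgals3bp, 4 of the 7 tested members differed at least 1.4-fold, beside 24.1% of all genes tested. At least 1.5-fold was reached by Lgals4 and Lgals8, beside 18.6% of all genes. Lgals4 rested on 40 counts in replicate 3, and without that library its range was 1.06-fold. Lgals8 was lowest in replicate 1, and without it the range was 1.16-fold. For Lgals7 the range was 1.17-fold without replicate 4. Their edgeR adjusted p was 0.991 each. Lgals7 and Lgals8 were also the 2 of 7 tested members with replicates 1 and 2, where Xist was high, both below replicates 3 and 4, beside 12.3% of all genes tested. None had them both above, beside 12.5%. The part of sex in these values was not tested.

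Replicate 4 was the highest library for 6 of the 7 tested members, all but Lgals4, where 33.2% of all genes tested were highest in replicate 4. With upper-quartile scaling it was 7 of 7, where 37.3% of all genes were. Replicate 3 was the lowest library for 4 of 7 (Lgals1, Lgals3bp, Lgals4 and Lgals9), beside 34.2% of all genes. On the TPM scale Lgals3 joined them. Since Lgals1 differed only 1.03-fold between its extreme libraries, its place in this count carries little weight. Without replicate 4, which stood apart over all genes, 20 genes in place of 1 varied beyond the trend, with 0 members among them. The genes share libraries and depth, so the members are not separate observations of replicate 4.

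**Figure D3:**
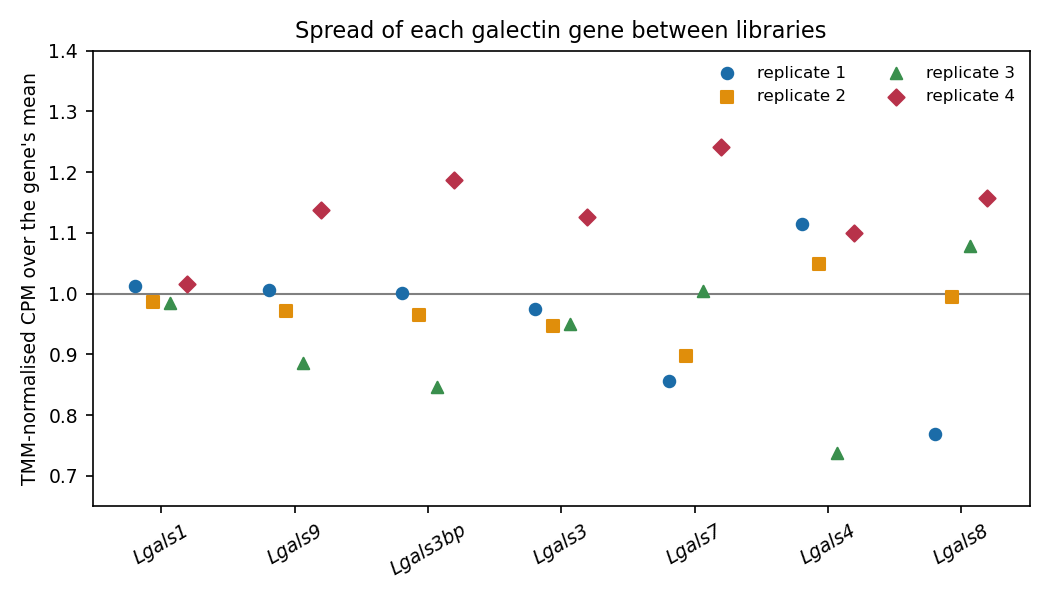
TMM-normalised CPM of 7 galectin family genes in each of 4 libraries, divided by the gene's mean over the libraries (line at 1). Lgals1 stays within a 1.03-fold range, while replicate 4 is the highest point for every gene shown but Lgals4.

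Other gene lists moved with the same libraries. Lgals9 and Lgals3bp are known as genes induced by interferon. Of 14 interferon response genes 8 were tested, of which 6 peaked in replicate 4 and 5 of these were also lowest in replicate 3, where 20.5% of all genes tested had both. The median of the list was 1.12, 2.08, 0.541 and 4.02 TPM in replicates 1 to 4, and its sum 349, 380, 361 and 411 TPM. Oas3, for one, had 6.70, 10.7, 3.23 and 22.8 TPM, a 6.92-fold range in CPM (edgeR adjusted p = 0.289), far wider than that of either galectin gene. Isg15 and Usp18 had 6.68, 18.99, 7.89 and 31.99 TPM and 1.43, 2.23, 0.755 and 7.03 TPM. Bst2, the most abundant gene of the list, had 285, 299, 298 and 289 TPM and did not keep that order. Of 11 tested low-oxygen response genes, 10 were highest in replicate 4 (33.2% of all genes) and 9 also lowest in replicate 3 (20.5%), with a list median of 64.3, 61.6, 46.4 and 85.95 TPM. The highest of these were the glycolysis genes Ldha at 3926 ± 170 and Pgk1 at 842 ± 97.8 TPM, the prolyl hydroxylase gene Egln3 at 599.97 ± 72.4, the glucose transporter gene Slc2a1 at 284 ± 53.4 and the mitophagy gene Bnip3 at 113 ± 55.3 TPM (SD, n = 4). No gene of either list passed edgeR's adjusted threshold, and 6 of 8 interferon and 5 of 11 low-oxygen genes had an unadjusted p under 0.05, beside 4.9% of all genes. Both extremes together were not particular to these lists. They held for 3 of 7 galectin members, 4 of 8 T-cell identity genes and 9 of 20 counter-receptor genes (listed below). For damaged-lysosome genes it was 6 of 11, for N-glycan branching genes 2 of 9 and for galactose and lactosamine genes 1 of 12. The part of the interferon or the low-oxygen response in the galectin values was not tested.

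The signature genes that accompany Lgals3 were set beside it. Of the other 15 genes of the pathogenic Th17 signature, 13 reached 1 TPM in all libraries, with a median of 35.1 ± 9.76 TPM (SD, n = 4), below the level of Lgals3. The highest were the chemokine genes Ccl4 and Ccl3 at 248 ± 45.5 and 199.9 ± 20.6 TPM, the inhibitory receptor gene Lag3 at 128 ± 17.6, the costimulatory receptor gene Icos at 117 ± 29.6 and the interleukin 7 receptor gene Il7r at 77.2 to 121 TPM. The coefficients of variation of the 13 tested genes had a median of 21.2%, and that of Lgals3 was 8.54%. Replicate 4 was the highest library for 7 of 13 and replicate 3 the lowest for 8 of 13, beside 33.2% and 34.2% of all genes. All 7 genes of the non-pathogenic signature reached 1 TPM in all libraries, with a median of 38.1 ± 4.26 TPM, led by the cytokine gene Il9 at 425 ± 216 TPM. Next were the transcription factor genes Maf and Ahr at 119 ± 4.13 and 46.0 ± 11.8, Il10 at 38.3 ± 5.11 and the cytokine receptor gene Il6st at 33.1 ± 6.92 TPM. In that list 1 of 7 was highest in replicate 4 and 1 of 7 lowest in replicate 3, Il10 in both cases. All but Il10 were highest in replicate 3, where Il9 had 734 TPM beside 245 TPM in replicate 4. At an unadjusted p under 0.05 (edgeR) were 8 of 13 pathogenic and 5 of 7 non-pathogenic genes, beside 4.9% of all genes. At the adjusted threshold there were 0 in both lists.

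Profiles like those of the members were sought by the root mean square difference of log2(CPM + 1), each gene centred on its mean over the 4 libraries. This was done for members with at least 1.5-fold between their extreme libraries, against 8165 protein-coding genes of at least 10 TPM. Nearest to Lgals4 were Akap12, Sall2, Zfp426, Rtl8c and Insl6, at 0.02 to 0.03 log2 units. Nearest to Lgals8 were Txnl4b, Kif3a, Sord, Ube2d1 and Cenpj, at 0.04 to 0.08 log2 units. With 4 libraries and this many genes such nearness is only a description.

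Galectins act on glycoproteins, and the genes of their counter-receptors were mostly abundant. Of 22 listed, 20 reached 1 TPM in all libraries, with a median of 182 ± 14.1 TPM (SD, n = 4), beside 25.2 ± 0.479 TPM over all genes tested. Of the receptors bound by galectin-1, the sialomucin CD43 (Spn) had 406 ± 14.9 TPM, the phosphatase CD45 (Ptprc) 188 ± 4.24, CD2 649 ± 91.6 and the activation marker Cd69 39.8 ± 4.49 TPM. The remaining galectin-1 receptor on the list, Cd7, held only 9 counts. For galectin-9 the pattern was split. Havcr2, which encodes TIM-3, held 9 counts over all libraries, at most 0.168 TPM in any of them. The disulfide isomerase gene P4hb had 1058 ± 37.7 TPM, Tnfrsf9 (4-1BB) 172 ± 90.2, Tnfrsf25 (DR3) 96.7 ± 8.63, Cd44 162 ± 12.8 and Pdcd1 (PD-1) 452 ± 70.3 TPM.

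Galectin-3 ligands were high as well. Ctla4 had 2801 ± 373 TPM, the immunoglobulin superfamily gene Bsg (CD147) 928 ± 138, the transferrin receptor gene Tfrc 855 ± 60.7, the amino acid transporter chain Slc3a2 209 ± 6.56, the lysosomal membrane gene Lamp1 150 ± 7.49 and Lag3 128 ± 17.6 TPM (SD, n = 4). Of the integrin genes, Itgb2 had 330 ± 9.81 and Itgb1 227 ± 4.25 TPM, while Itga4 was low at 3.53 ± 0.457 TPM. Selplg, the gene of a selectin ligand, had 144 ± 16.5 TPM and Cd3e of the antigen receptor 125 ± 6.66 TPM. Of 20 tested genes, 0 varied beyond the trend at the adjusted threshold (edgeR), and 5 did at an unadjusted p under 0.05 (Ctla4, Bsg, Pdcd1, Tnfrsf9 and Lag3), beside 4.9% of all genes. Tnfrsf9 came nearest, with 134, 159, 94.0 and 301 TPM in replicates 1 to 4 and replicate 4 3.14-fold above replicate 3 in CPM (edgeR adjusted p = 0.289).

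The sugars that galectins bind are built by glycosyltransferases. Branching of N-glycans takes mannosidases, which trim the glycan, and Mgat1, Mgat2, Mgat4a, Mgat4b and Mgat5, which add to the number of antennae. Of 10 such genes 9 reached 1 TPM in all libraries, with a median of 32.7 ± 0.875 TPM (SD, n = 4). Mgat1 and Mgat2 had 71.6 ± 0.520 and 125 ± 7.95 TPM. The later enzymes were lower, Mgat5 at 23.6 ± 1.52, Mgat4b at 12.1 ± 0.989 and Mgat4a at 7.97 ± 0.291 TPM. Mgat3, which adds the bisecting residue, held 1 count in all. The mannosidase genes Man2a1, Man1a, Man1a2 and Man2a2 had 57.1 ± 3.59, 46.6 ± 6.51, 39.5 ± 2.47 and 26.3 ± 0.574 TPM.

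Galactose and lactosamine are then added. B4galt1, the main galactosyltransferase of N-glycans, led its list at 191 ± 15.0 TPM (SD, n = 4), ahead of B4galt3 at 23.6 ± 1.25, B4galt4 at 14.8 ± 0.708 and B4galt2 at 3.48 ± 0.318 TPM. C1galt1 and its chaperone C1galt1c1, which start the core of mucin-type O-glycans, had 32.4 ± 1.29 and 37.5 ± 3.96 TPM. The genes for extending lactosamine chains were low: B3gnt2 had 8.61 ± 0.948 TPM, B3gnt3 4.43 ± 1.22, B3gnt5 4.42 ± 1.41 and B3gnt8 1.09 ± 0.151 TPM. The branching genes Gcnt2 and Gcnt1 had 3.81 ± 1.36 and 2.54 ± 0.151 TPM. In all, 11 of 12 genes of this list reached 1 TPM in each library, B3gnt8 in replicate 2 being the exception at 0.896 TPM.

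Capping by sialic acid can block or permit galectin binding. St6gal1, whose α2,6 linkage is known to prevent binding of galectin-1, had 56.6, 48.8, 42.3 and 66.8 TPM in replicates 1 to 4. Replicates 4 and 3 were its extremes, 1.55-fold apart in CPM (edgeR unadjusted p = 0.0131, adjusted p = 0.875). The α2,3 sialyltransferase genes St3gal4, St3gal1, St3gal2 and St3gal3 had 59.4 ± 3.19, 55.3 ± 3.28, 23.9 ± 1.21 and 13.6 ± 0.875 TPM (SD, n = 4). St3gal6 had 0.818 ± 0.274 TPM and St6gal2 0 counts. Of the fucosyltransferase genes, Fut7 had 42.8 ± 4.30, Fut8 12.5 ± 0.520 and Fut4 2.93 ± 0.414 TPM. Of these 10 capping genes 8 reached 1 TPM in all libraries. In all 3 enzyme lists 30 genes were tested and 0 varied beyond the trend at the adjusted threshold (edgeR), with 3 at an unadjusted p under 0.05 (St6gal1, Gcnt2 and Man1a), beside 4.9% of all genes.

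**Figure D4:**
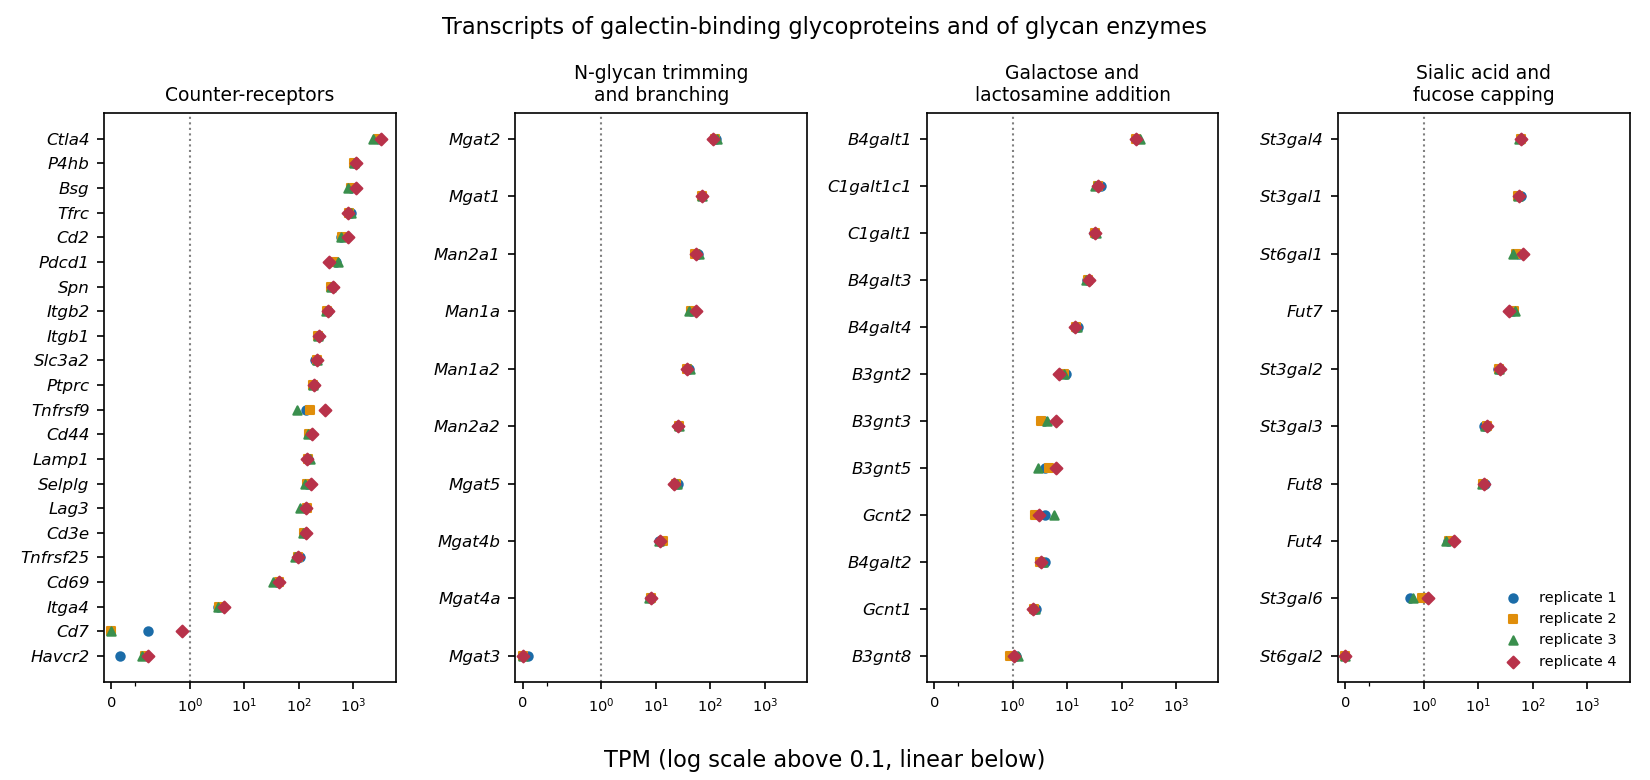
TPM (log scale above 0.1, linear below) of 22 counter-receptor genes and 32 glycan enzyme genes in 4 Th17 libraries; colours and shapes are the libraries and the dotted line is 1 TPM. Ctla4 and P4hb lead the receptors, Havcr2 and Cd7 lie below 1 TPM, and B4galt1 leads the enzymes.

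Inside the cell, galectin-3 and galectin-8 are known to recruit repair and autophagy factors to damaged lysosomes. Of 12 such genes 11 reached 1 TPM in all libraries, with a median of 47.4 ± 3.30 TPM (SD, n = 4). The membrane-repair genes Chmp4b, Pdcd6ip (ALIX, a partner of galectin-3) and Tsg101 had 588 ± 8.35, 124 ± 2.05 and 59.9 ± 1.71 TPM. The autophagy genes Gabarap and Sqstm1 had 212 ± 23.7 and 121 ± 15.0 TPM. Calcoco2, the receptor that galectin-8 is known to bind in human cells, had 0 counts in every library. Of 11 tested genes, 8 were highest in replicate 4, beside 33.2% of all genes, and 0 varied beyond the trend at the adjusted threshold (edgeR; 0 at an unadjusted p under 0.05).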

How the data were processed

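RNA of 4 Th17 libraries was measured as counts of read pairs per gene. Per the file headers, the authors counted over exons (GENCODE mouse release 13) using featureCounts 1.4.6-p4, reverse-stranded (option 2), requiring both mates aligned and, as no option for them is set, leaving out pairs that map to several places or overlap several genes; the labels name mm10, and no aligner version is known here. The deposited files also hold the exonic length of each gene. Symbols came from GENCODE release 21 (50376 of 50600 identifiers matched, 1 listed gene, Lgals6, did not), sequences from RefSeq. TPM were computed here from counts and lengths, without a fragment-length correction. Spread was tested with edgeR 4.0.16 (TMM, filterByExpr, intercept alone, each quasi-dispersion over its trend against the F distribution, upper tail, Benjamini-Hochberg over 12156 genes). The test was first run on simulated counts whose dispersions all lay on the trend. That simulation held no scatter of genes about the trend, so its power does not carry over to these data. DESeq2 1.42.0 was an alternative. No pair of libraries was alike within counting noise (chi-square at least 3.32 per gene), so all 4 were kept. The depth was 9382661 to 34542693 counts, and intervals (95%, exact Poisson) cover counting error only.

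The members and lists were chosen with earlier results of these data known. Named are all members, the galectin-fold, counter-receptor and glycan lists in full, of other lists genes from among the 5 highest and those below 1 TPM in the mean (not all of them), and for members with at least 1.5-fold range the 5 nearest profiles; other genes, and other markers given by count, were chosen after their values were seen, as were the counts of members by highest and lowest library under each scaling, the 1.4-fold share, and the split by Xist. A gene that the rule would name is not reported here.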

Additional observations from a re-analysis of the deposited data

Results flagged for a closer look

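Among 137 listed genes of at least 1 TPM in the mean, 7 had 1 library far from the other libraries (a gap over the range above Dixon's 95% value for 4 samples). Chance flags about 1 in 20 such groups, and no galectin family member was among them. In replicate 4, Itga4 (4.21 TPM) and Tsg101 (62.5 TPM) were highest and Tbx21 (15.3 TPM) lowest. In replicate 3, B4galt1 (214 TPM) was highest and St3gal4 (54.6 TPM) lowest. Slc3a2 was lowest in replicate 1 (199 TPM) and Mgat4b highest in replicate 2 (13.6 TPM).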

How the results depend on the processing

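No paired analysis was possible because there is 1 group only. The count of 7 members at 1 TPM or more in every library was the same at thresholds of 0.5 and 2 TPM, with 200 bases taken off each length, with protein-coding genes alone in the total, and without each replicate. Lgals1's share of the family's TPM was 96.5% with the shorter lengths and 88.9% without length scaling; without each replicate in turn it was 95.7% to 96.03%. The Lgals3 ratio between extreme libraries was 1.19 to 1.22 under 3 other normalisations and 1.03 to 1.19 without each replicate, lowest without replicate 4. Genes varying beyond the trend numbered 126 with no filter, 5 with a mean count of at least 50, 0 with a robust prior (579 at an unadjusted p under 0.05), 103 as DESeq2 dispersion outliers, and 1 to 20 without each replicate (20 without replicate 4). The cause of these changes was not tested. Members among them were 0 in every setting run. Of the 5 profiles nearest Lgals4, 3 stayed with a pseudocount of 0.1 in place of 1. Depth limits Lgals2 and, in replicate 3, Lgals4 and Lgals7 (40 and 48 counts).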
